A study of Mus musculus with 2 samples.

Results

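Single LβT2 cells were divided by their content of the transcript for inhibin alpha (Inha), and the cells rich in it were compared with the cells in which it was not captured. Inha-high cells held 3 or more Inha UMIs and Inha-zero cells held 0, where a UMI (unique molecular identifier) marks 1 captured transcript. Of 3881 called cells, 3554 held at least 300 UMIs over the genes analysed. Of these, 509 were Inha-high and 1701 were Inha-zero, so that both classes together comprised 2210 cells. The remaining 1344 cells, with 1 or 2 Inha UMIs, entered neither class. Because the cells were chosen by their Inha counts, the values of Inha are given as a description, and every other gene was compared at equal depth.

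Inhibin alpha is the subunit that pairs with a beta subunit to form the inhibins, which restrain the secretion of follicle-stimulating hormone by the gonadotrope. Beta subunits that pair with each other form activins, which act in the opposite direction. The gonadotrope is the pituitary cell that secretes luteinising and follicle-stimulating hormone in response to gonadotropin-releasing hormone (GnRH).

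LβT2 is a clonal, immortalised mouse line derived from pituitary gonadotropes, grown here to passage 15. One culture received 2 nM GnRH for 40 min and the other received vehicle, and each gave 1 droplet-based 3′ single-cell library. Cells of 1 library are not replicates, so differences between the classes or the treatments have no replicate check, no test was run, and intervals in parentheses are 95% intervals that cover counting error only. The table analysed held 1068 genes, of which 1062 could be placed, all on chromosome 1. The gonadotrope markers Lhb, Cga, Gnrhr, Fshb and Nr5a1 were not among them, so only Inha and Inhbb of the listed gonadotrope markers could be seen here. The label of the line rests on the authors' account, who compared their cells with an early-passage aliquot. Of 12 markers of other cell types, 10 were among the genes analysed, and 8 of these, including the fibroblast genes Col3a1 and Col5a2, had 0 UMIs in both classes of both libraries. The muscle and pericyte marker Des had 1 UMI in Inha-high and 6 in Inha-zero vehicle-treated cells, and 5 and 10 in GnRH-treated cells. Myl1 had 2 UMIs, both in GnRH-treated Inha-high cells. Over the genes analysed, the cells with at least 300 UMIs held 1083768 UMIs with vehicle and 1097403 with GnRH, which are partial totals and not library depth. Column names carried no cell barcodes, so barcodes shared between the libraries were not counted.

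In the vehicle library, 226 of 1773 cells were Inha-high (12.7%, exact binomial interval 11.2 to 14.4%) and 849 were Inha-zero. In the GnRH library, 283 of 1781 cells were Inha-high (15.9%, 14.2 to 17.7%) and 852 were Inha-zero. The largest count in a cell was 16 Inha UMIs with vehicle and 27 with GnRH, and the variance over the mean was 2.54 and 3.35. As a description, Poisson counting at each cell's depth was set beside this, with the same Inha share in all cells of a library. It gave 188 Inha-high cells with vehicle and 249 with GnRH, and 632 and 550 cells with 0 Inha UMIs. Whether Inha-high cells form a distinct set was not tested. Just inside the threshold lay 99 vehicle-treated and 114 GnRH-treated cells with 3 Inha UMIs, and just outside it lay 211 and 204 cells with 2. A change of 1 captured transcript would thus move many cells into or out of the Inha-high class.

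**Figure D1:**
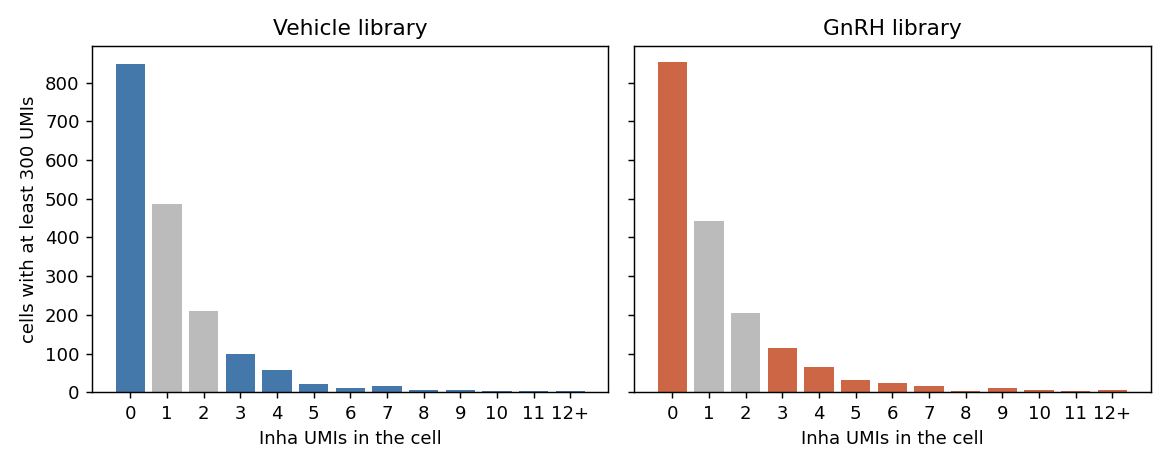
Number of cells (y axis) by Inha UMIs in the cell (x axis) among cells with at least 300 UMIs, in the vehicle and GnRH libraries. Coloured bars are the Inha-zero and Inha-high classes, and grey bars are cells with 1 or 2 Inha UMIs. The tallest bars are the 849 and 852 cells at 0, and 99 and 114 cells lie at 3, the threshold of the Inha-high class.

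Depth moved with the classes. Inha-high cells held a median of 686.5 UMIs (interquartile range 535.25 to 846.5) with vehicle and 667 (565 to 850) with GnRH, against 529 (435 to 658) and 527 (438 to 650) in Inha-zero cells. The median number of genes per cell was 176 and 175 in Inha-high cells, and 156 and 154 in Inha-zero cells. When all genes were thinned to 300 UMIs per cell, the share of cells with 3 or more Inha UMIs was 4.005% with vehicle and 5.05% with GnRH. Each comparison below therefore set Inha aside and drew 300 UMIs of the other genes at random from each cell, which left out no cell of either class. Classes drawn only from cells of 450 to 700 UMIs had closer medians, of 575 against 550 UMIs with vehicle and 591.5 against 549 with GnRH, and values from this depth window are given where they moved a result. Whether cell size or RNA content contributed to a difference between the classes was not tested.

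At equal depth most genes differed little between the classes. Genes with at least 100 thinned UMIs over both classes were counted, and a difference of at least 1.5-fold was called by size alone. In the vehicle library, 3 of 302 genes were called higher in Inha-high cells (0.993%) and 4 were called lower (1.32%). In the GnRH library, 6 of 304 were called higher (1.97%) and 8 lower (2.63%). These counts moved with the thinning and the class definition. Averaged exactly over all possible thinnings, 0 were higher and 3 lower with vehicle and 4 and 3 with GnRH. Over 9 other random thinnings, 0 to 4 were higher and 6 to 15 lower with vehicle, and 4 to 9 and 5 to 8 with GnRH. With 4 or more Inha UMIs as high, 19 were lower with vehicle and 14 with GnRH. Bard1 and Pask were called higher in both libraries, 2 of 298 genes counted in both (0.671%), and Igfbp5 was the 1 gene called lower in both (0.336%). Averaged over all thinnings, 0 genes were called higher in both libraries and Igfbp5 remained the 1 called lower. Its call rested on the vehicle ratio, which lay close to 1.5-fold. With thinning to 400 UMIs, no thinning, the depth window, the class taken after thinning (2 or more against 0 Inha UMIs) and the median log2 ratio set to 0, that log2 ratio was -0.57, -0.55, -0.42, -0.57 and -0.58, and 0 genes were called lower in both libraries. The same count of 0 was met among 9 other random thinnings, in which the vehicle ratio of Igfbp5 lay between -0.66 and -0.50. The median log2 ratio over all counted genes was -0.01 with vehicle and -0.02 with GnRH. Across the 298 genes, which are not independent replicates, the ratios of the libraries had a Pearson r of 0.33 (0.32 without Igfbp5). Over the 105 genes with at least 500 thinned UMIs in each library, r was 0.61 (0.56 without Igfbp5). The sign of the ratio was shared by 194 genes (65.1%).

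**Figure D2:**
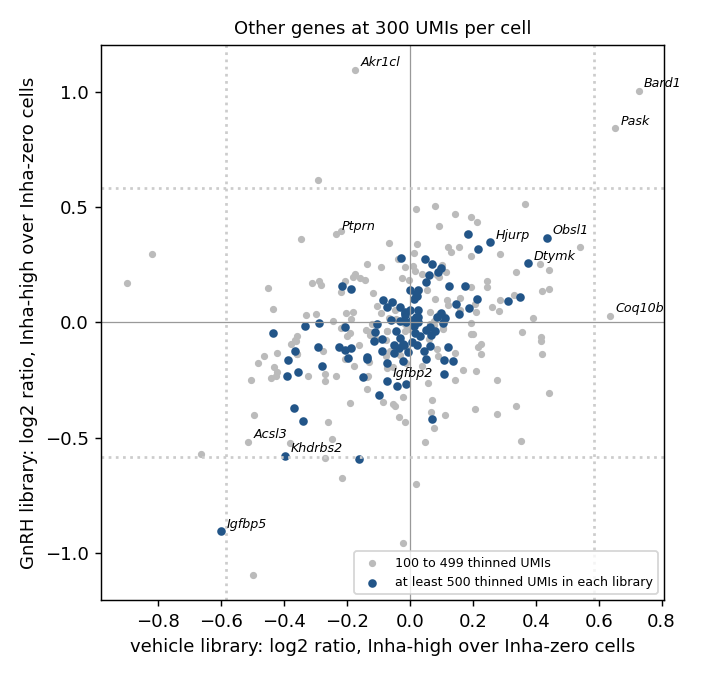
Each point is a gene, placed by its log2 ratio of Inha-high over Inha-zero cells in the vehicle library (x axis) and in the GnRH library (y axis), with dotted lines at 1.5-fold. Igfbp5 lies lowest on the left among the genes with at least 500 thinned UMIs (dark points), at -0.60 and -0.91, and Bard1 and Pask lie at the upper right among the less abundant genes.

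Igfbp5, which encodes a secreted protein that binds insulin-like growth factors, had the widest difference between the classes in both libraries among the genes with at least 500 thinned UMIs in each. In vehicle-treated cells it averaged 2.99 UMIs per thinned Inha-high cell (2.77 to 3.23) and 4.53 per Inha-zero cell (4.39 to 4.68), a log2 ratio of -0.60 (-0.72 to -0.48). In GnRH-treated cells it averaged 2.46 (2.28 to 2.65) against 4.61 (4.47 to 4.76), a log2 ratio of -0.91 (-1.03 to -0.79). Igfbp5 was below 0 on this scale in both libraries under every alternative tried, between -0.78 and -0.42 with vehicle and between -1.12 and -0.66 with GnRH. The difference did not rest on the threshold of 3, since Igfbp5 was also intermediate in the cells between the classes. With vehicle, its mean per thinned cell was 4.53, 4.15, 3.67, 3.45 and 2.67 at 0, 1, 2, 3 and 4 Inha UMIs, and 2.60 at 5 or more. With GnRH the means were 4.61, 3.67, 2.77, 2.58 and 2.97, and 2.00 at 5 or more. The order was unbroken with vehicle, whereas with GnRH the value at 4 Inha UMIs stood above that at 3 within overlapping intervals.

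Igfbp5-rich cells were fewer in the Inha-high class. With vehicle, 22.1% of Inha-high cells (16.9 to 28.1%) and 37.7% of Inha-zero cells (34.4 to 41.0%) held at least 5 thinned Igfbp5 UMIs. With GnRH the shares were 19.1% (14.7 to 24.2%) and 38.6% (35.3 to 42.0%). At least 10 UMIs were held by 3.54% against 11.8% with vehicle and by 1.77% against 13.1% with GnRH. At least 1 thinned Igfbp5 UMI was found in 81.0% of Inha-high and 90.0% of Inha-zero cells with vehicle and in 78.1% and 87.7% with GnRH. The level of free RNA could not be gauged, since the data hold no cell type that lacks Igfbp5, so these shares include any such background and do not show that each such cell expressed the gene. In the depth window the shares with at least 5 UMIs were 22.2% against 37.8% with vehicle and 9.42% against 33.6% with GnRH.

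Igfbp5 lies at chr1:72857932-72874884 on the minus strand and Inha at chr1:75507077-75510366 on the plus strand (GRCm38), 2.63 Mb apart. Igfbp2, another binding protein for insulin-like growth factors and a neighbour of Igfbp5 on the chromosome, differed less. Its log2 ratio was -0.07 (-0.14 to -0.00) with vehicle and -0.25 (-0.32 to -0.19) with GnRH. Inhbb, the inhibin beta-B subunit that can pair with inhibin alpha, averaged 1.02 UMIs per Inha-high and 1.03 per Inha-zero cell with vehicle, and 0.802 and 0.901 with GnRH. Its log2 ratios of -0.02 (-0.24 to 0.19) and -0.17 (-0.39 to 0.05) did not exceed counting error, so a difference in the partner subunit was not detectable at this depth. The type II receptor Bmpr2 and the receptor-associated Tgfbrap1 had ratios between -0.11 and -0.01, which moved widely. Over the alternatives Bmpr2 lay between -0.55 and 0.21 with vehicle and between -0.17 and 0.17 with GnRH. Tgfbrap1 lay between -0.38 and 0.21 with vehicle and between -0.56 and 0.16 with GnRH, so closeness of the classes is not shown for them. Scg2, a secretory granule protein, differed by 0.06 (0.02 to 0.11) and -0.02 (-0.06 to 0.03).

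DNA replication and mitosis genes were on the higher side in Inha-high cells. Of 9 such genes, 8 were counted, and all 8 had a ratio above 0 in both libraries, with median log2 ratios of 0.33 with vehicle and 0.34 with GnRH against -0.01 and -0.02 over all counted genes. At the 1.5-fold size, 1 of the 8 was called higher in each library, Bard1 in both, where 0.993% and 1.97% of all counted genes were called higher. The vehicle call was lost when averaged over all thinnings, with Bard1 at 0.52. A log2 ratio of at least 0.32 was reached by 4 with vehicle and 5 with GnRH, where 7.28% and 8.55% of all counted genes reached it. Averaged over all thinnings, 3 of the 8 reached it in each library, where 2.98% and 6.27% of all counted genes did. The thymidylate kinase gene Dtymk, whose product supplies thymidine nucleotides, averaged 2.65 against 2.04 UMIs per cell with vehicle and 2.13 against 1.79 with GnRH, log2 ratios of 0.38 (0.24 to 0.51) and 0.26 (0.12 to 0.39). Hjurp, the chaperone that loads the centromeric histone, had ratios of 0.26 (0.10 to 0.40) and 0.35 (0.20 to 0.49). For the replicative helicase subunits the ratios were 0.35 and 0.11 for Mcm3 and 0.31 and 0.09 for Mcm6, and the GnRH intervals of both included 0.

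Among the less abundant members, Bard1, the partner of BRCA1 in DNA repair, had 52 UMIs in Inha-high and 118 in Inha-zero cells with vehicle, and 72 and 108 with GnRH. Its log2 ratios of 0.73 (0.23 to 1.21) and 1.01 (0.55 to 1.45) fell to 0.52 and 0.63 when averaged over all thinnings, and to 0.63 and 0.24 in the depth window. With the class taken after thinning the GnRH value was -0.078. In the vehicle library Bard1 averaged 0.253 UMIs per cell at 3 and 0.316 at 4 Inha UMIs, but 0.129 at 5 or more against 0.139 at 0, within overlapping intervals. Ube2t, a ubiquitin-conjugating enzyme of DNA repair, had ratios of 0.19 and 0.38, Prim2, a subunit of DNA primase, 0.54 and 0.33, and Sgol2a, a protector of centromeric cohesion, 0.18 and 0.38. Ube2t with vehicle came down to 0.02 in another random thinning. Prim2 was at 0.29 and 0.18 averaged over all thinnings. Its vehicle value was 0.058 with Btg2 left out, its GnRH value turned to -0.23 in another random thinning, and Sgol2a with vehicle turned below 0 under 5 alternatives, to -0.68 with 4 or more Inha UMIs as high. The list median stayed above 0 under all alternatives, from 0.23 to 0.39 with vehicle and from 0.16 to 0.43 with GnRH. In the depth window, where the classes differed less in UMIs, it was 0.25 and 0.19. Summed over the 9 genes, the mean per thinned cell was 7.47 at 0 Inha UMIs and 9.96 at 5 or more with vehicle, and 6.94 and 8.90 with GnRH. The order was broken in both libraries, from 9.38 at 3 to 8.67 at 4 Inha UMIs with vehicle and from 8.09 at 2 to 7.73 at 3 with GnRH, within overlapping intervals. The part of depth in these differences was not tested.

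**Figure D3:**
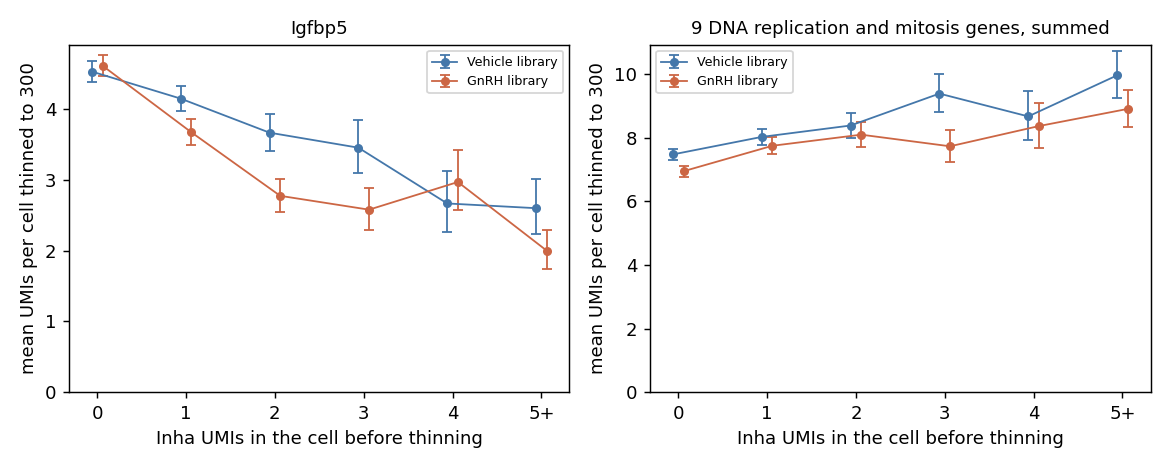
Mean UMIs per cell thinned to 300 UMIs (y axes, from 0) of Igfbp5 (left) and of 9 DNA replication and mitosis genes summed (right), by the Inha UMIs of the cell before thinning (x axes), with exact Poisson 95% intervals. Igfbp5 went from 4.53 to 2.60 in the vehicle library and from 4.61 to 2.00 in the GnRH library, while the summed replication and mitosis genes went from 7.47 to 9.96 and from 6.94 to 8.90.

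The gene next to Inha was also higher in Inha-high cells. Obsl1, which encodes a cytoskeletal adaptor protein, lies at chr1:75479310-75506452 on the minus strand, so that it and Inha are transcribed away from a shared stretch of 624 bases. It had 163 UMIs in Inha-high and 453 in Inha-zero cells with vehicle, and 195 and 455 with GnRH, log2 ratios of 0.43 (0.17 to 0.70) and 0.37 (0.12 to 0.61). Over the alternatives its ratio lay between 0.32 and 0.65 with vehicle and between 0.23 and 0.54 with GnRH. Obsl1 overlaps Tmem198 on the opposite strand, and Tmem198 differed by 0.22 and -0.11. The 250 bases before the Obsl1 start, which lie in the stretch shared with Inha, are shown to place the pair (chr1:75506453-75506702, minus strand, GRCm38.p6 from RefSeq). They hold no copy of the letters TGACG on either strand, the core of the cyclic AMP response element, so none is in capitals.
Obsl1: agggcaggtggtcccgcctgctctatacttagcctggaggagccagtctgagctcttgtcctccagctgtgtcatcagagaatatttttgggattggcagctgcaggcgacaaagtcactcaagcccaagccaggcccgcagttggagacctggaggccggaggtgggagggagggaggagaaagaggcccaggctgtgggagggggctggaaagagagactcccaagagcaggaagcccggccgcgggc

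Nearness to Inha did not in general go with a higher ratio. Of 23 counted genes within 1 Mb of Inha, 7 had a ratio above 0 with vehicle and 10 with GnRH, and the medians were -0.13 and -0.00. The anion exchanger Slc4a3, 0.0359 Mb from Inha, had ratios of 0.44 (0.11 to 0.77) and 0.14 (-0.19 to 0.47), and turned below 0 under some alternatives. Genes at 1 to 5 Mb had medians of 0.02 and -0.07, those at 5 to 20 Mb -0.01 and 0.00, and those farther away -0.01 and -0.02.

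Of the 10 genes ranked highest and the 10 ranked lowest by their mean ratio over the libraries, most were of low abundance, and their values moved with the random thinning. Pask, a nutrient-responsive PAS domain kinase, had ratios of 0.65 (0.05 to 1.23) and 0.84 (0.32 to 1.35), and 0.54 and 0.83 averaged over all thinnings. Mfsd4, Scly, Dis3l2, Gpc1 and Terf1 completed the higher group beside Bard1, Prim2, Obsl1 and Coq10b, with ratios between 0.20 and 0.51. Averaged over all thinnings, Mfsd4 was at -0.10 with vehicle and 0.29 with GnRH and Dis3l2 at 0.08 and 0.10, and each of these 5 genes turned below 0 in at least 1 library under some alternative. In the lower group, Khdrbs2, an RNA-binding splicing regulator, had ratios of -0.39 (-0.65 to -0.15) and -0.58 (-0.82 to -0.34) and stayed below 0 under all alternatives. Acsl3, which activates fatty acids for lipid synthesis, had ratios of -0.51 (-0.91 to -0.13) and -0.52 (-0.91 to -0.15), likewise below 0 throughout. The Acsl3 ratios averaged over all thinnings were -0.28 and -0.50, and the vehicle value lay between -0.45 and -0.099 in 9 other thinnings, so the printed one stood outside them. Fbxo36 was at -0.66 and -0.57, Kcnb2 at -0.50 and -0.40, and Fastkd2, Asb1, Cdk5r2, Tmem37 and Fam72a completed the group. Each of these 7 genes turned above 0 in at least 1 library under some alternative. Of the 20 ranked genes, all but Igfbp5, Terf1, Fam72a, Fastkd2, Asb1 and Tmem37 overlap other annotated genes on either strand, and their counts are uncertain to that extent. Fam72a, at -0.50 and -1.10, turned to 0.11 and 0.22 in other thinnings. Of 107 genes followed by name through the alternatives, 13 kept 1 direction in both libraries and under every alternative. The 9 higher ones were Mcm3, Mcm6, Hjurp, Ube2t, Dtymk, Ptma, Cntnap5a, Pask and Obsl1, and the 4 lower ones were Igfbp2, Igfbp5, Acsl3 and Khdrbs2. The ranked genes among the 107 had been chosen for the same sign in both libraries, and the alternatives reuse the same cells. Genes outside the 107 were not followed, so no share over all counted genes is given.

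Cntnap5a and Ptma showed small differences of the same direction in both libraries. Cntnap5a, a neuronal cell adhesion gene of the neurexin superfamily, averaged 5.99 against 5.15 UMIs per cell with vehicle and 5.53 against 4.44 with GnRH, log2 ratios of 0.22 (0.13 to 0.31) and 0.32 (0.23 to 0.40). Ptma, which encodes prothymosin alpha, a chromatin-associated protein of dividing cells, had ratios of 0.17 and 0.16. Akr1cl, an aldo-keto reductase gene that overlaps Gm8550 on the opposite strand, had 46 UMIs in Inha-high and 195 in Inha-zero cells with vehicle, a log2 ratio of -0.17 (-0.67 to 0.30), and 93 and 131 with GnRH, a ratio of 1.10 (0.70 to 1.49). Of the 93 UMIs, 59 lay in the 114 cells with exactly 3 Inha UMIs, at a mean of 0.518 per cell, against 0.154 at 0, 0.167 at 4 and 0.223 at 5 or more Inha UMIs. Among the 283 GnRH-treated Inha-high cells, 2 held at least 10 Akr1cl UMIs, with up to 15 in a cell. Averaged over all thinnings, the Akr1cl ratios were 0.13 and 0.94.

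None of the remaining gene lists had a member called in both libraries, apart from Igfbp5. Median log2 ratios with vehicle and with GnRH were 0.03 and 0.21 for secretory granule and peptide processing, 0.01 and 0.05 for the cytosolic ribosome and translation, and 0.02 and -0.06 for the respiratory chain and mitochondrial ribosome. They were 0.09 and 0.14 for splicing and chromatin, -0.04 and -0.02 for chaperones, 0.05 and 0.10 for actin and matrix adhesion, and 0.10 and 0.02 for cell death regulators. Neuronal adhesion and transport had medians of 0.22 and 0.14, the early GnRH response genes 0.18 and 0.03, lipid, steroid and glutamine metabolism -0.15 and -0.03, and inhibin, activin and TGF-beta family signalling -0.02 and -0.11. The 2 IGF-binding genes, described above, had medians of -0.33 and -0.58. The vehicle median of the early GnRH response genes was 0.04 when averaged over all thinnings and -0.34 in the depth window. Ribosome biogenesis stood at -0.02 and -0.30, and the second value was -0.08 when averaged over all thinnings and 0.14 in the depth window. Of 22 medians followed through the alternatives, 5 kept their sign, those of DNA replication and mitosis and of splicing and chromatin in both libraries and that of lipid, steroid and glutamine metabolism with vehicle. The ribosomal protein genes Rpl7, Rpl31 and Rpl37a, among the most abundant transcripts, lay between -0.11 and 0.10.

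The GnRH response was then compared inside each class. Cells were classed after treatment, so a class held different cells in each library, which may not correspond. Inha-high cells averaged 4.51 Inha UMIs with vehicle and 4.85 with GnRH. A response below is therefore a ratio between groups of cells and not a change within the same cells. GnRH raises early genes of the gonadotrope within minutes through calcium and kinase signalling, and Btg2, an antiproliferative immediate-early gene, is among them. Genes 2-fold or more higher with GnRH numbered 3 of 220 counted in Inha-high cells (1.36%), namely Btg2, Coq10b and Ptprn, and 4 of 336 in Inha-zero cells (1.19%), the same 3 and Fhl2. In Inha-high cells Fhl2 was 2.83-fold higher with GnRH, but its 13 and 46 UMIs fell short of the minimum of 100. No counted gene was 2-fold lower in either class. Inha itself was 0.19 higher on the log2 scale with GnRH over all cells of at least 300 UMIs (0.10 to 0.27). The sequences before the starts of Btg2 and Coq10b are shown because these had the largest GnRH ratios of the 3 genes. Each is 250 bases of GRCm38.p6 from RefSeq, Btg2 at chr1:134079156-134079405 on the minus strand and Coq10b at chr1:55052520-55052769 on the plus strand, with TGACG or its reverse complement CGTCA in capitals.
Btg2: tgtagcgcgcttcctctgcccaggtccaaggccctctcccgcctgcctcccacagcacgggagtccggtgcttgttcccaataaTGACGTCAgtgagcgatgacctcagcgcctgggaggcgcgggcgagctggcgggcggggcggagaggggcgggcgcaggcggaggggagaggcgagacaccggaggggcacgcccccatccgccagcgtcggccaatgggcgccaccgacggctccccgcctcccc
Coq10b: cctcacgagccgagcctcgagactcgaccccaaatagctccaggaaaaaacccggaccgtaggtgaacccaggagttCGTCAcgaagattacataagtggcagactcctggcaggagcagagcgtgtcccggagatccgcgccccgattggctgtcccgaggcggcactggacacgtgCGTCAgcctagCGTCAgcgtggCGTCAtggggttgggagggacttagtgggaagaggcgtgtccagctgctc
Btg2 holds 1 full palindrome, TGACGTCA, which counts as 2 overlapping copies of the core, and Coq10b holds 4 copies of the core. The core occurs on either strand in 17.8% of 32851 such windows of 250 bases and the palindrome in 1.55%. These matches describe letters only, and binding was not measured in these cells.

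Btg2 was much higher with GnRH in both classes, and its responses differed by less than counting error. It averaged 0.314 UMIs per thinned Inha-high cell with vehicle (0.245 to 0.396) and 9.14 with GnRH (8.80 to 9.50), a log2 ratio of 4.86 (4.52 to 5.22). In Inha-zero cells it averaged 0.282 (0.247 to 0.320) and 8.80 (8.60 to 9.001), a ratio of 4.97 (4.78 to 5.16). The difference of the responses was -0.10 (-0.49 to 0.28), which does not show that the classes respond alike. The depth window gave 0.64, where vehicle-treated Inha-high cells with a Btg2 UMI numbered 14 of 99.

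The distribution of Btg2 over GnRH-treated cells differed at its lower end. Its quartiles were 5, 8 and 13 thinned UMIs in Inha-high cells and 2, 7 and 13 in Inha-zero cells. At least 5 UMIs were held by 75.3% of Inha-high cells (69.8 to 80.2%) and 61.5% of Inha-zero cells (58.1 to 64.8%), whereas at least 10 were held by 40.6% and 40.5%. In the depth window the shares with at least 5 UMIs were 68.8% (60.4 to 76.4%) and 63.0% (58.4 to 67.3%), so that the intervals overlapped among cells of similar depth. With vehicle, 0 of 226 Inha-high cells, which allows a share of up to 1.33% by the limit of 3 cells and 1.62% by the exact binomial interval, and 3 of 849 Inha-zero cells held at least 5. A Btg2 UMI was present in 97.2% of Inha-high and 93.8% of Inha-zero cells with GnRH, and in 25.7% and 20.97% with vehicle. In the depth window the vehicle order turned, to 14.1% (7.95 to 22.6%) against 21.2% (17.5 to 25.3%), with overlapping intervals. The GnRH shares there were 97.8% and 93.4%. As for Igfbp5, the shares of cells with a Btg2, Coq10b or Ptprn UMI include any background from free RNA.

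Coq10b, which encodes a mitochondrial coenzyme Q-binding protein, was also higher with GnRH in both classes. It averaged 0.243 UMIs per Inha-high cell with vehicle and 0.883 with GnRH, a log2 ratio of 1.86 (1.43 to 2.31), and 0.157 and 0.866 per Inha-zero cell, a ratio of 2.47 (2.20 to 2.74). The difference, -0.61 (-1.11 to -0.11), lay beside a Coq10b log2 ratio of Inha-high over Inha-zero cells of 0.64 with vehicle and 0.03 with GnRH, which were 0.38 and 0.13 averaged over all thinnings. The difference depended on the random thinning, being -0.25 when averaged over all thinnings and -0.09 in the depth window. At least 1 Coq10b UMI was found in 22.6% of Inha-high and 14.1% of Inha-zero cells with vehicle and in 53.4% and 55.5% with GnRH. The order of the GnRH shares turned under the alternatives, to 58.7% against 54.8% in the depth window, 63.75% against 51.8% without the 5% of cells with most UMIs, and 83.7% against 71.5% unthinned. Coq10b overlaps Gm17971 on the same strand, and their reads may not be told apart.

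Ptprn, a transmembrane protein of dense-core secretory granules, showed a larger ratio in Inha-high cells. It averaged 0.212 UMIs per Inha-high cell with vehicle and 0.682 with GnRH, a log2 ratio of 1.68 (1.22 to 2.17). In Inha-zero cells it averaged 0.250 and 0.522, a ratio of 1.06 (0.83 to 1.31). The difference was 0.62 (0.10 to 1.13), 0.80 when averaged over all thinnings and 1.26 in the depth window, and it was above 0 under every alternative. In that window 11 of 99 vehicle-treated Inha-high cells held a Ptprn UMI. The log2 ratio of Inha-high over Inha-zero cells was -0.23 (-0.72 to 0.22) with vehicle and 0.38 (0.13 to 0.63) with GnRH. These Ptprn ratios were -0.48 and 0.32 averaged over all thinnings, and the GnRH value turned to -0.17 with the class taken after thinning. A Ptprn UMI was found in 17.7% of Inha-high and 20.02% of Inha-zero cells with vehicle, and in 44.5% and 37.4% with GnRH. The vehicle value for Inha-high cells rested on 48 UMIs. In the depth window the shares were 11.1% and 18.7% with vehicle. With GnRH they were 38.4% (30.3 to 47.1%) and 35.3% (31.0 to 39.9%) there, within overlapping intervals. Ptprn overlaps Gm28294 on the opposite strand and lies 0.243 Mb from Inha.

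**Figure D4:**
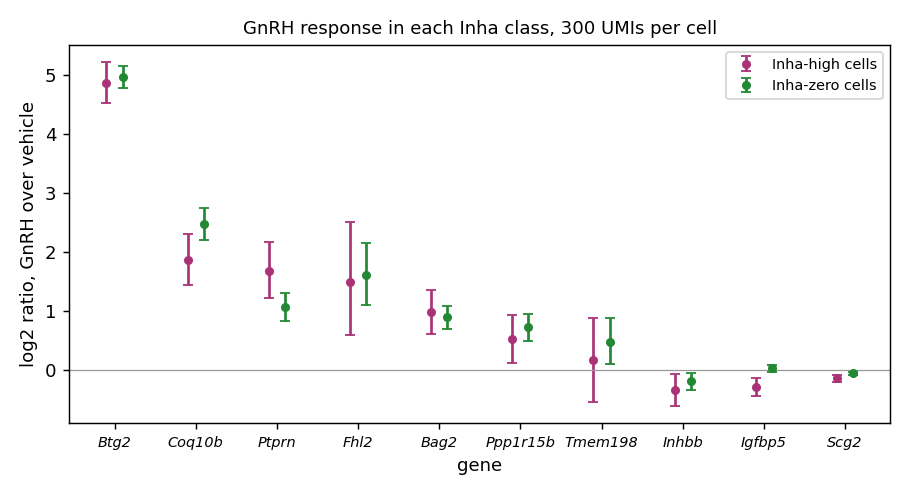
Log2 ratio of GnRH over vehicle (y axis) for 10 genes (x axis) in Inha-high and Inha-zero cells thinned to 300 UMIs, with exact conditional binomial 95% intervals. Btg2 is at 4.86 and 4.97, Coq10b is lower in Inha-high cells at 1.86 against 2.47, and Ptprn is higher at 1.68 against 1.06.

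Along the Inha count before thinning, the log2 response of Ptprn was 1.06, 1.28, 1.49, 1.40 and 2.37 at 0, 1, 2, 3 and 4 Inha UMIs and 1.74 at 5 or more. That of Coq10b was 2.47, 2.15, 2.19, 2.00 and 1.79, and 1.72 at 5 or more. For Btg2 the values were 4.97, 5.15, 5.34, 5.02 and 4.34, and 5.19 at 5 or more. Coq10b thus stood lower at each step other than that from 1 to 2 Inha UMIs, and Ptprn stood lower at 3 than at 2 and at 5 or more than at 4. For each of the 3 genes the intervals at 0 and at 5 or more Inha UMIs overlapped, and an order along the Inha count was not tested.

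For the other early genes with UMIs in every group, the interval in the thinning shown of the difference between the classes included 0, which does not show that the classes respond alike. The co-regulator Fhl2 had a log2 response of 1.499 (0.59 to 2.51) in Inha-high and 1.61 (1.10 to 2.15) in Inha-zero cells, from 13 and 46 UMIs in Inha-high cells with vehicle and GnRH. The Fhl2 responses averaged over all thinnings were 2.25 and 1.59, and the difference between the classes turned from -0.12 to 0.66, with 0.25 to 1.71 over 9 other thinnings, so the difference in the thinning shown stood outside that range. The cochaperone Bag2 had responses of 0.98 (0.61 to 1.35) and 0.89 (0.70 to 1.09). Ppp1r15b, which directs a phosphatase to the translation factor eIF2 alpha, had 0.53 (0.12 to 0.94) and 0.72 (0.50 to 0.95). The difference of the log2 responses was -0.32 (-1.09 to 0.45) for Tmem198 and -0.41 (-2.09 to 1.27) for Bok, a regulator of cell death. The sign of the difference also changed among the thinnings or in the depth window for Bag2, Ppp1r15b, Tmem198, Bok and Inhbb, so no direction is given for them. Neurl3 had 1 vehicle UMI in each class, so no reliable ratio could be formed. Inhbb was lower with GnRH in both classes, by log2 ratios of -0.34 (-0.61 to -0.07) and -0.19 (-0.34 to -0.05). Igfbp5 was lower with GnRH in Inha-high cells, at -0.28 (-0.44 to -0.13), and close to its vehicle level in Inha-zero cells, at 0.03 (-0.04 to 0.09), a difference of -0.31 (-0.47 to -0.14). That difference was -0.26 averaged over all thinnings, -0.22 without thinning, -0.17 with 4 or more Inha UMIs as high, -0.094 with the class taken after thinning and -0.69 in the depth window, so its size depended on the setting. Inha-high cells also held more Inha UMIs on average with GnRH, and the part of this in the Igfbp5 difference was not tested.

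**Figure D5:**
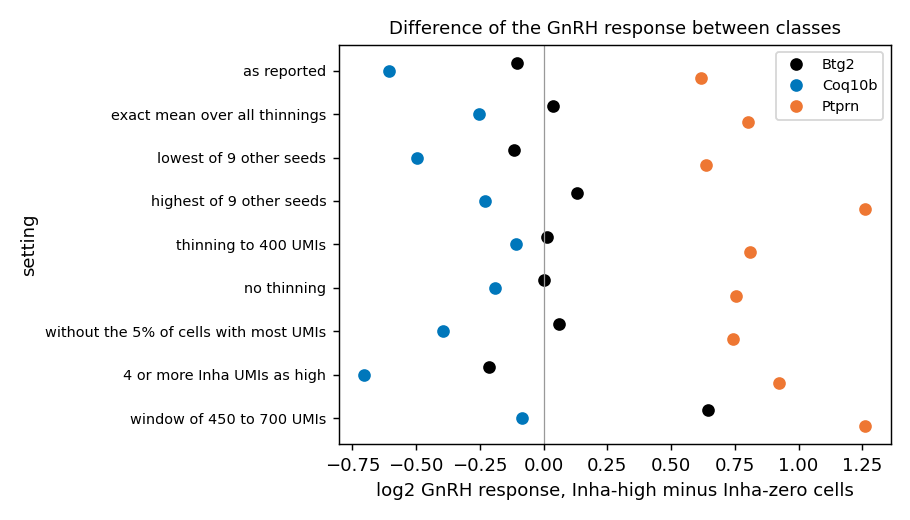
Difference of the log2 GnRH response between Inha-high and Inha-zero cells (x axis) for Btg2, Coq10b and Ptprn under each setting (y axis). Ptprn lies above 0 and Coq10b below 0 in every setting shown, with Coq10b between -0.70 and -0.09, and Btg2 lies on both sides of 0.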

How the data were processed

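The authors processed the single-cell reads with Cell Ranger version 1.3 (build mm10, per the submitters' processing notes), and the deposited values were raw UMI counts per gene and called cell, with no normalisation. The table analysed held the first 1068 of 27998 genes (3.81%), and 1 incomplete row was left out. Use of strand in counting was not given in the sources used here. All 3881 cells carried their treatment in the column name, and 0 per-sample columns were unused.

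Cells with at least 300 UMIs were divided by Inha UMIs (3 or more against 0), Inha was removed, and each cell was thinned at random without replacement to 300 UMIs (Python 3.11.15, NumPy 2.4.6, SciPy 1.17.1). Thinned counts were summed per class and library. Log2 ratios compare shares of the class totals of genes with at least 100 thinned UMIs over both classes. Calls were made by size alone, 1.5-fold between classes and 2-fold for GnRH over vehicle, because 1 library per treatment allows no test. Intervals were exact Poisson (levels), exact Clopper-Pearson binomial (shares), exact conditional binomial (ratios) and normal on the log scale (differences of ratios), at 95%. They cover counting error only, and treat UMIs as independent, although Igfbp5, Btg2 and Inha vary more between cells than that. The code was tested on simulated data. No doublet caller was run, and the 5% of cells with most UMIs were left out as an alternative.

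The classes, the 14 gene lists, the marker lists and the naming rule were chosen with earlier results of these data known. Genes followed were Inhbb, Btg2, Coq10b, Ptprn, counted list members, the 10 genes with the largest mean ratio in each direction and the same sign in both libraries, and, chosen after their values were seen, genes called in 1 library and genes within 1 Mb of Inha. Positions are from GENCODE release M21 (GRCm38), which is not necessarily the annotation used for counting. Sequences are from RefSeq (GRCm38.p6). Alternatives are given in the closing section.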

Additional observations from a re-analysis of the deposited data

How the results depend on the processing

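No paired analysis was possible because 1 library stood for each treatment. Depth limits these results, since many genes had few UMIs per class and 1 random thinning moved them. The exact mean over all thinnings, the depth window for shares and the alternatives for list medians and for the responses of Igfbp5 and the other early genes were chosen after seeing the data. The causes of the changes below were not tested unless the alternative itself shows them.

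Counts of genes called in Inha-high cells moved as follows. At a smaller size, a log2 ratio of 0.32, 22 and 26 genes were higher and 37 and 34 lower with vehicle and GnRH, and 5 and 9 in both libraries. With 4 or more Inha UMIs as high, 5 were higher and 19 lower with vehicle, 14 lower with GnRH and 2 lower in both. With the class taken after thinning, 1 was higher and 17 lower with vehicle, and 0 were higher and 0 lower in both. In the depth window, 1 was higher in each library, 9 were lower with vehicle, and 0 were called in both in either direction. With no thinning, 1 was higher with vehicle, 4 were lower with GnRH, and 0 were called in both in either direction. Averaged over all thinnings, 0 were higher with vehicle, 3 lower with GnRH and 0 higher in both. Over 9 other random thinnings, genes lower with vehicle reached 15 and lower with GnRH came down to 5, genes higher with vehicle and higher in both came down to 0, and genes lower in both ranged from 0 to 2. A minimum of 300 UMIs left 0 higher in each library and in both, and 2 lower in each library. A minimum of 50 gave 5 higher and 16 lower with vehicle and 14 lower with GnRH. Thinning to 400 gave 7 lower with vehicle, 1 higher in both and 0 lower in both. With Btg2 left out, 8 were lower with vehicle and 1 higher in both. Without the 5% of cells with most UMIs, 11 were lower with vehicle and 1 higher in both. Median centring left 0 lower in both.

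Bard1 with GnRH reversed to -0.078 with the class taken after thinning (2 or more against 0 Inha UMIs), and in other random thinnings Fam117b, Asb1 and Fam72a with GnRH reversed to 0.036, 0.068 and 0.22. In the depth window the log2 GnRH ratio in Inha-high cells was 5.50 for Btg2 and 2.52 for Ptprn, and the difference between classes was 0.64 for Btg2, -0.086 for Coq10b and 1.26 for Ptprn. The highest of the 9 other thinnings gave 2.21 for Ptprn in Inha-high cells and a difference of 1.26. In the same window the median of early GnRH response genes with vehicle was -0.34 and that of ribosome biogenesis with GnRH was 0.14. Of 22 list medians, 5 kept their sign under all alternatives. A list median was held to have moved when outside the medians of its members' interval bounds, which 2 of 286 values were. A narrower interval tried first, that of the summed counts, left 87 outside.

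Shares of cells with at least 1 UMI were higher with no thinning, by its construction. With vehicle they were 41.2% of Inha-high and 32.7% of Inha-zero cells for Btg2, 38.9% and 25.9% for Coq10b, and 34.1% and 34.2% for Ptprn. With GnRH they were 99.3% and 97.7%, 83.7% and 71.5%, and 65.4% and 51.5%. In the depth window, the shares with vehicle were 14.1% of Inha-high and 21.2% of Inha-zero cells for Btg2, and 11.1% and 18.7% for Ptprn. Those of Coq10b with vehicle were 22.2% and 17.3%, and those of Ptprn with GnRH were 38.4% and 35.3%. Without the 5% of cells with most UMIs, Ptprn was at 38.3% of Inha-high cells with GnRH, and Coq10b at 63.75% of Inha-high and 51.8% of Inha-zero cells. The share of Inha-high cells was 4.005% and 5.05% with all genes thinned, and the median depth of GnRH-treated Inha-high cells was 639 UMIs without the 5% of cells with most UMIs.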
